A study of Mus musculus with 8 samples.

Results

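The steady-state miRNAs of MIN6B1 cells, a subclone of the mouse insulinoma line MIN6 used as a model of the pancreatic beta cell, were compared between a control plasmid and a plasmid expressing the HENMT1ΔC-T6B methyltransferase, in RNA that had not been oxidized. These are 4 of the 8 samples of the series: 2 samples labelled as replicates of the control plasmid and 2 of the methyltransferase plasmid. The other 4 samples received the same plasmids, but their RNA was treated with sodium periodate (NaIO4) before small RNA sequencing, and they enter below only where named. The non-oxidized samples are headed H2O in the deposited listing. All samples were transiently transfected with Lipofectamine and all cells were of this 1 line. Transfection reagent, genotype and exposure to a plasmid are thus shared by both groups, whereas the plasmid itself differs. The labels do not name the strain, the promoter of the plasmid or the share of transfected cells, and a transient transfection mixes transfected and untransfected cells. In such bulk RNA, fewer cells that carry a miRNA and less of it per cell cannot be told apart.

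miRNAs are short RNAs cut from hairpin precursors by Drosha and Dicer and loaded into Argonaute proteins, where bases 2 to 8, the seed, select target mRNAs. HENMT1 is the methyltransferase that adds a 2′-O-methyl group to the 3′ end of piRNAs, and the T6B peptide, derived from TNRC6B, binds Argonaute. The fusion therefore brings the enzyme to Argonaute-bound small RNAs, and methylated 3′ ends resist periodate. In non-oxidized RNA both methylated and unmethylated ends can be cloned. The 2 plasmids are compared here for level, length and untemplated 3′ nucleotides (tails), and methylation was not measured. Whether both kinds of end were cloned equally well was not tested. A difference in cloning between plasmids cannot be told apart here from one in level, length or tails. Animal miRNAs normally end in an unmethylated ribose, and their 3′ ends can be trimmed by exonucleases or extended by terminal nucleotidyltransferases, which add mainly A or U. Sequence variants of 1 miRNA that differ in this way are called isomiRs.

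The mature sequences that carry the comparison are shown first, from the RefSeq table (build GRCm38.p6), with the seed in capitals. The first group shares the let-7 seed and supplied the largest summed share of miRNA counts among the families described.
let-7c-5p: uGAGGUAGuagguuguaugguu
let-7b-5p: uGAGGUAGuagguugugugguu
let-7a-5p: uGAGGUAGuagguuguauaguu
let-7k: uGAGGUAGgagguugugug
The second group holds both miRNAs whose level passed the test (miR-141-3p and miR-30e-5p) beside the relatives that share their seeds.
miR-141-3p: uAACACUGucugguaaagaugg
miR-200a-3p: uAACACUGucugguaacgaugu
miR-30e-5p: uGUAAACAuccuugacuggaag
miR-30a-5p: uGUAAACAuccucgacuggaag
The third group holds abundant miRNAs whose lengths differed between plasmids or whose main form was not the reference.
miR-7a-5p: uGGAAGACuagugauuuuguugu
miR-7b-5p: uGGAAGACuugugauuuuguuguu
miR-16-5p: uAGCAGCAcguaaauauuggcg
miR-93-5p: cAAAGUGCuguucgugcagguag
miR-29a-3p: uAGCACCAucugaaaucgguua

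The deposited listing held 11568 distinct sequences, of which 1395 were assigned to 201 mature miRNAs. Every listed sequence had at least 2 counts in each oxidized methyltransferase sample and at least 10 in their sum, whereas other samples reached 0. The profile of non-oxidized RNA below is therefore that of sequences also seen after oxidation with the methyltransferase. Listing thus followed 1 of the 2 plasmids, and rare sequences found mainly with the control plasmid may be missing. Of the listed sequences, 7.68% and 9.13% were at 0 in the non-oxidized control samples and 5.29% and 5.54% in the non-oxidized methyltransferase samples. What this does to the comparison of plasmids was not tested. Listed counts were 5387014 and 6641250 in the control samples and 3654639 and 4887022 in the methyltransferase samples. The miRNAs took 84.8% and 85.5% of listed counts with the control plasmid and 76.3% and 76.5% with the methyltransferase. Sequences 1 substitution away from a miRNA took 6.17% and 5.63% against 9.19% and 6.85%, and tRNA hits 2.58% and 2.57% against 3.31% and 4.14%. Depth, the miRNA share and the shares of these other classes thus moved with the plasmid, and their part in the results below was not tested. Replicates correlated across miRNAs with r = 0.991 in both groups (log2 scale, 192 miRNAs of the same samples), but their counts differed by more than sampling noise (chi-square per degree of freedom 273 and 115).

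Few miRNAs made up most of the profile. Levels are given as CPM, the usual depth-scaled count unit, here over miRNA counts with TMM factors. The 20 most abundant miRNAs held 92.4% and 93.0% of miRNA counts in the control samples and 93.5% and 94.2% in the methyltransferase samples. The 4 with the highest mean CPM over the 4 samples, let-7c-5p, miR-7a-5p, let-7b-5p and miR-375-3p, held 58.3% and 58.2% against 59.4% and 59.0%. let-7c-5p, a member of the let-7 family that restrains growth-promoting genes such as Lin28 and Hmga2, stood at 156865 and 169859 CPM in the control samples and 208192 and 243926 CPM in the methyltransferase samples. miR-7a-5p, an abundant islet miRNA that restrains insulin secretion, stood at 156102 and 190361 CPM against 123671 and 139474 CPM. miR-375-3p, the best known beta-cell miRNA, which restrains insulin secretion and supports beta-cell mass, stood at 134194 and 110568 CPM against 121708 and 107835 CPM. The samples of the plasmids did not overlap for let-7c-5p and miR-7a-5p, which lay on opposite sides, and overlapped for miR-375-3p. Of the 192 miRNAs tested for level, 104 had no overlap between plasmids. let-7b-5p is given with its family below. Neither let-7c-5p, miR-7a-5p nor miR-375-3p passed the test (edgeR quasi-likelihood test with Benjamini-Hochberg adjustment: log2 fold change 0.47 ± 0.11 (SE), adjusted p = 0.0837; -0.40 ± 0.13, adjusted p = 0.115; and -0.09 ± 0.13, adjusted p = 0.707).

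**Figure D1:**
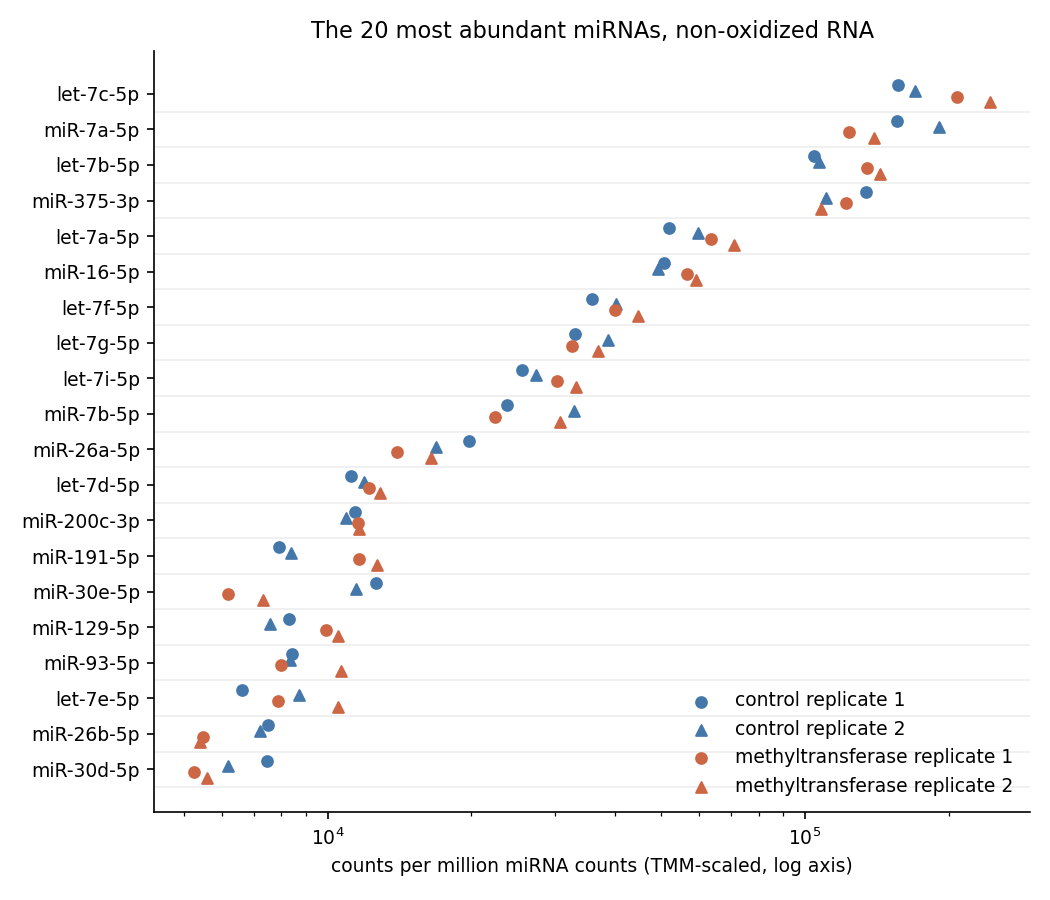
CPM (log axis) of the 20 most abundant miRNAs, 1 point per sample, blue for the control plasmid and orange for the methyltransferase plasmid, circles for replicate 1 and triangles for replicate 2. miR-30e-5p, at 12620 and 11490 with the control plasmid and 6176 and 7306 with the methyltransferase, is the only one of the 20 that passed the test.

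Levels of 192 miRNAs could be tested, and 2 passed an adjusted p of 0.05 (edgeR quasi-likelihood test, Benjamini-Hochberg adjustment), both lower with the methyltransferase (1.04%) and none higher (0%). At an unadjusted p of 0.05, 16 were higher and 30 lower, and the median log2 fold change over all 192 was -0.04. miR-141-3p, a member of the miR-200 family that keeps the epithelial state by repressing Zeb1 and Zeb2, stood at 6545 and 6815 CPM with the control plasmid and at 3422 and 2895 CPM with the methyltransferase. The groups did not overlap, and miR-141-3p fell by 1.08 ± 0.14 (SE, n = 2 per group) on the log2 scale (edgeR adjusted p = 0.0215). miR-30e-5p, of a family that also opposes epithelial-mesenchymal transition, stood at 12620 and 11490 CPM against 6176 and 7306 CPM. These groups did not overlap either, and miR-30e-5p fell by 0.84 ± 0.14 on the log2 scale (edgeR adjusted p = 0.0429). Neither call held without methyltransferase replicate 2, where both adjusted p were 0.136, or in the fit of all 8 samples, where they were 0.0890 for miR-141-3p and 0.221 for miR-30e-5p. Keeping every miRNA with a count, or those with a mean of at least 50 counts, gave 0.0537 and 0.0512 for miR-141-3p and 0.0835 and 0.0854 for miR-30e-5p, and without control replicate 1 the adjusted p of miR-30e-5p was 0.0568.

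**Figure D2:**
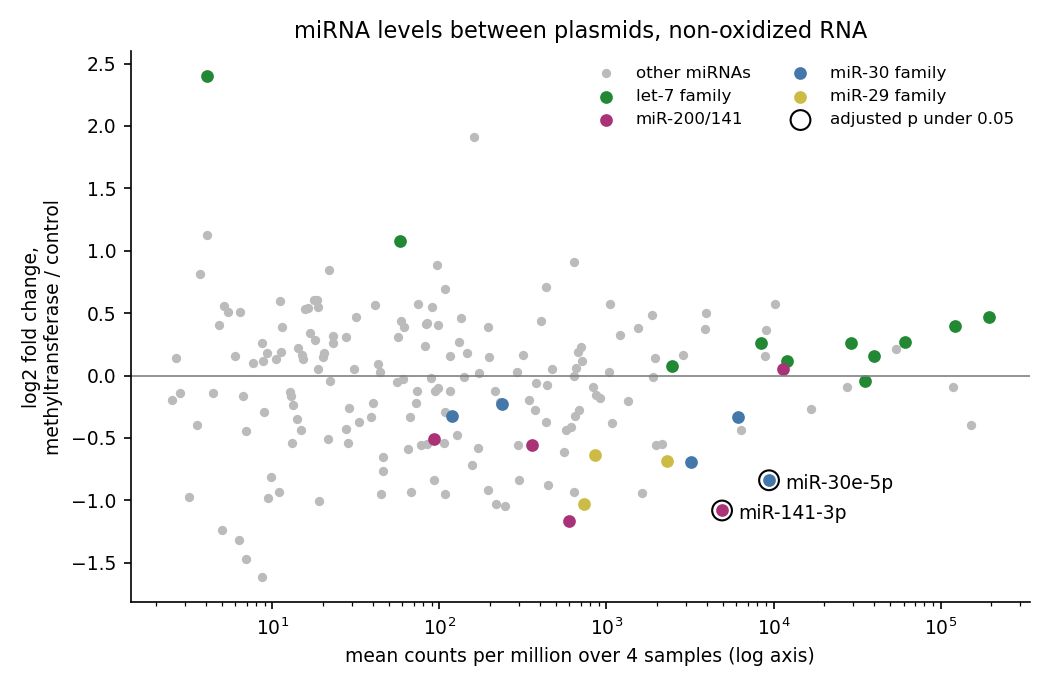
Log2 fold change (methyltransferase over control) of the 192 tested miRNAs against their mean CPM (log axis), with 4 families in colour and the 2 miRNAs past the test circled. With the TMM factors plotted, 10 of the 11 let-7 members lie above 0, and the miR-30 and miR-29 members lie below 0.

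Beyond these 2, the next smallest p-values were not calls. Below 0 stood miR-340-5p at 2227 and 2088 CPM against 1253 and 996.9 CPM (log2 fold change -0.94 ± 0.18), miR-200a-3p at 817 and 825 CPM against 434 and 297 CPM (-1.17 ± 0.23), and miR-30a-5p at 4173 and 3752 CPM against 2317 and 2601 CPM (-0.69 ± 0.15). Each had an edgeR adjusted p of 0.0576 and no overlap between plasmids. Above 0 stood miR-191-5p at 7899 and 8388 CPM against 11617 and 12682 CPM (0.58 ± 0.12) and miR-483-5p, encoded in an intron of Igf2, at 471 and 418 CPM against 763 and 908 CPM (0.91 ± 0.20), both also at an adjusted p of 0.0576. Over 14 alternative fits, miR-340-5p and miR-200a-3p were each called in 9, miR-483-5p in 7, miR-191-5p in 5 and miR-30a-5p in 4. The 2 miRNAs past the test were called in 10 (miR-141-3p) and 9 (miR-30e-5p). These fits include other processing, all 8 samples, single samples left out and a block for the replicate number. let-7b-5p (0.39 ± 0.10) and let-7k (1.08 ± 0.28) both had an adjusted p of 0.0844. let-7k is the short RefSeq entry shown above and was rare, with 37.1 and 37.4 CPM against 83.0 and 74.6 CPM. Its leading form was not this 19-nt entry but a tailed 22-nt sequence, at 73.2% and 68.7% of its counts against 65.4% and 66.8%. The entry differs from the start of the far more abundant let-7b-5p by 1 base. Whether counts given to let-7k are misread let-7b-5p was not tested.

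The let-7 family was the largest group. All 11 listed members were tested, 0 passed, 10 had a log2 fold change above 0 and the median was 0.26, against 92 of 192 above 0 and a median of -0.04 over all miRNAs. Together they held 45.2% and 46.9% of miRNA counts with the control plasmid and 53.7% and 55.7% with the methyltransferase. The exception below 0 was let-7g-5p (-0.05 ± 0.13), with 32975 and 38628 CPM against 32516 and 36805 CPM. let-7b-5p stood at 104630 and 106910 CPM against 134498 and 143405 CPM, and let-7a-5p at 51914 and 59751 CPM against 63387 and 71123 CPM, with no overlap between plasmids for either. let-7i-5p stood at 25591 and 27259 CPM against 30273 and 33110 CPM (0.26 ± 0.11, edgeR adjusted p = 0.215). let-7f-5p (0.16), let-7d-5p (0.12) and let-7e-5p (0.26) lay closer to 0, with adjusted p from 0.479 to 0.621, and let-7f-5p and let-7e-5p overlapped between plasmids. The direction depends on scaling: divided by total listed counts, which moved the median of all miRNAs by -0.25, 7 of the 11 were above 0 and 4 below, with a median of 0.01, and with DESeq2 size factors all 11 were above 0. Members differ by as little as 1 base, and a read error can move a count between them.

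The miRNAs of the beta-cell list lay mostly below 0. Of 13 members tested, 1 (miR-141-3p) was called lower and 0 higher, 10 were below 0 and the median log2 fold change was -0.40. Over all 192 miRNAs 1.04% were called lower and 100 were below 0. Their summed share of miRNA counts was 35.5% and 35.8% with the control plasmid and 28.9% and 27.5% with the methyltransferase. With total listed counts as the scale all 13 were below 0, beside 138 of all 192, and with DESeq2 size factors 9 were, beside 94. Most of the list's counts belong to miR-7a-5p and miR-375-3p. The list also holds all 5 members of the miR-200 family described next. These supply 4 of the 10 members below 0 and the 1 call, so the 2 results are not separate. miR-7b-5p, which shares its seed with miR-7a-5p, stood at 23745 and 32752 CPM against 22387 and 30638 CPM (log2 fold change -0.09 ± 0.20, edgeR adjusted p = 0.841). In the cluster of miR-183, miR-96 and miR-182, miR-182-5p lay at 1910 and 1875 CPM against 1873 and 1891 CPM, miR-183-5p at 693 and 674 CPM against 754 and 729 CPM, and miR-96-5p at 92.8 and 92.5 CPM against 80.6 and 46.1 CPM. None of the 3 passed, with log2 fold changes of -0.01, 0.12 and -0.55. miR-184-3p (0.24 ± 0.32) and miR-153-3p (-0.51 ± 0.40), both linked to beta-cell function, were rare, at 61.9 to 105.7 CPM and 13.0 to 28.0 CPM over the 4 samples.

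The 5 tested members of the miR-200 family had a median log2 fold change of -0.56, with 4 below 0 and 1 called lower, beside 100 of 192 below 0 and 1.04% called lower over all miRNAs. miR-200c-3p, the most abundant, stood at 11419 and 10905 CPM against 11594 and 11607 CPM (0.06 ± 0.12, edgeR adjusted p = 0.828; -0.19 with total listed counts), whereas its neighbour miR-141-3p fell. Both are encoded on chromosome 6, minus strand, in introns of the antisense transcript gene Gm15884: miR-141-3p, which also overlaps an exon of Gm29008, at chr6:124717917-124717938 and miR-200c-3p at chr6:124718324-124718346. The other 3 lie together on chromosome 4, minus strand: miR-200b-3p (chr4:156055685-156055706) and miR-200a-3p (chr4:156054911-156054932) in introns of Ttll10, and miR-429-3p. miR-429-3p (421 and 435 CPM against 314 and 268 CPM, log2 fold change -0.56 ± 0.21) and miR-200b-3p (91.1 and 125 CPM against 86.6 and 65.6 CPM, -0.51 ± 0.30) had adjusted p of 0.145 and 0.370. Whether members of a cluster differ from each other was not tested.

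All 5 miR-30 members were below 0 (median -0.33) under each of the 3 scalings, and 1, miR-30e-5p, was called lower. Of all 192 miRNAs, 1.04% were called lower, and 100 were below 0 with TMM factors, 94 with DESeq2 size factors and 138 with total listed counts. Their summed share was 2.59% and 2.21% of miRNA counts against 1.43% and 1.46%. miR-30e-5p lies in an intron of Nfyc at chr4:120772660-120772681, minus strand. miR-30d-5p stood at 7451 and 6177 CPM against 5255 and 5577 CPM (-0.33 ± 0.14, edgeR adjusted p = 0.215). The rarer miR-30b-5p and miR-30c-5p overlapped between plasmids, at 93.0 and 170 CPM against 140 and 70.2 CPM and at 181.8 and 330 CPM against 275 and 163 CPM. The 3 miR-29 members, which repress collagens and other matrix genes, were all below 0 without overlap, with 0 called: miR-29a-3p at 2699 and 2951 CPM against 2022 and 1499 CPM (-0.68 ± 0.18), miR-29b-3p at -0.64 and miR-29c-3p at -1.03. Over all 192 miRNAs, 104 had no overlap between plasmids in either direction.

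The smaller families gave 0 calls. The miR-15/16 list had 5 of 6 members tested, with a median of -0.54: miR-16-5p, which restrains cell cycle genes, stood at 50540 and 49116 CPM against 56695 and 59066 CPM (0.22 ± 0.10), while miR-15a-5p, cut from the same Dleu2 intron, stood at 333 and 330 CPM against 199 and 121 CPM (-1.05 ± 0.28, edgeR adjusted p = 0.0844). miR-16-5p also has a copy in an intron of Smc4, and with total listed counts its log2 fold change was -0.031. miR-26a-5p (-0.27 ± 0.14) and miR-26b-5p (-0.44 ± 0.12) were both below 0 without overlap. miR-93-5p (0.16 ± 0.16) and miR-106b-5p (-0.48 ± 0.29), which lie within Mcm7, stood on opposite sides of 0 with TMM factors, and both below 0 with total listed counts, where miR-93-5p was at -0.098. miR-129-5p was at 8279 and 7570 CPM against 9898 and 10503 CPM (0.36 ± 0.12, adjusted p = 0.117). Both tested members were below 0 in the miR-181 (median -0.72) and miR-103 with miR-107 (-0.34) lists and above 0 in the miR-25/92 list (0.28; 1 of 2 with total listed counts). Medians were -0.14 for miR-23/27/24 (4 members), -0.22 for miR-125/99/100 (4), -0.09 for miR-130 with miR-301 (3) and -0.16 for the miR-17 seed (2). Single members represented the list of miR-148 and miR-152 (-1.47) and that of miR-34 and miR-449 (-0.58), and miR-221 and miR-222 were not analysed here.

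Markers of other cell types lay far below miR-7a-5p and miR-375-3p or were not analysed here, but not all were rare. miR-9-5p of the neuron and glia list stood at 727 and 611 CPM against 485 and 391 CPM. For miR-183-5p of the beta-cell list the values were 693 and 674 CPM against 754 and 729 CPM. Of the liver list (1 miRNA), miR-122-5p stood at 100.6 and 34.8 CPM with the control plasmid and 318 and 190 CPM with the methyltransferase, with no overlap and a log2 fold change of 1.91 ± 0.51 (edgeR adjusted p = 0.0844). The control samples themselves lay far apart: the log2 fold change of miR-122-5p was 2.90 without control replicate 1 (adjusted p = 7.44e-05) and 1.34 without control replicate 2 (adjusted p = 0.100). miR-122-5p was called higher in 8 of the 14 alternatives, among them DESeq2 size factors (adjusted p = 0.0378), DESeq2's Wald test (2.60e-04) and the fit of all 8 samples (0.0140). Its part in the other results was not tested. The 3 neuron and glia miRNAs summed to 1337 and 1084 CPM against 1078 and 752 CPM, and 0 passed: miR-9-5p at -0.61 ± 0.21, miR-128-3p at -0.08 ± 0.26 and miR-124-3p at -0.93 ± 0.56. The endothelial miR-126a-3p stood at 51.4 and 54.4 CPM against 55.0 and 83.5 CPM. Of the blood list (1 of 7 analysed), miR-486a-5p, whose mature sequence is also that of miR-486b-5p, stood at 14.7 and 13.5 CPM against 17.4 and 25.3 CPM (0.61 ± 0.37, adjusted p = 0.385). Of the acinar (0 of 3), muscle (0 of 4), fibroblast and smooth muscle (0 of 6) and pluripotent (0 of 3) lists, no member was among the sequences analysed here.

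The 2 arms of a hairpin come from 1 precursor, and 34 hairpin names had both arms tested. Their log2 fold changes had the same sign in 18 names, 10 above 0 and 8 below. With DESeq2 size factors 16 names had the same sign, 10 above and 6 below, and with total listed counts 21, 3 above and 18 below. Across the 34 names, measured in the same samples, Pearson's r was 0.10 and Spearman's rho 0.14. For both miRNAs that passed, the other arm lay near 0 with TMM factors. miR-141-5p stood at 145 and 137 CPM against 142 and 139 CPM (log2 fold change -0.01 ± 0.23; 0.04 with DESeq2 size factors), and miR-30e-3p at 656 and 635 CPM against 669 and 676 CPM (0.06 ± 0.18; -0.19 with total listed counts). The same held for miR-200a-5p (0.03, beside -1.17 for miR-200a-3p) and miR-340-3p (0.11, beside -0.94), which were at -0.22 and -0.10 with total listed counts, and miR-30a-3p was at 0.44 beside -0.69. In miR-9 both arms were below 0 (-0.61 and -0.72), and in miR-483 both were above 0 (0.23 and 0.91), though miR-483-3p was at -0.017 with total listed counts. These pairs were picked after their values were seen, and the difference between arms was not tested.

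**Figure D3:**
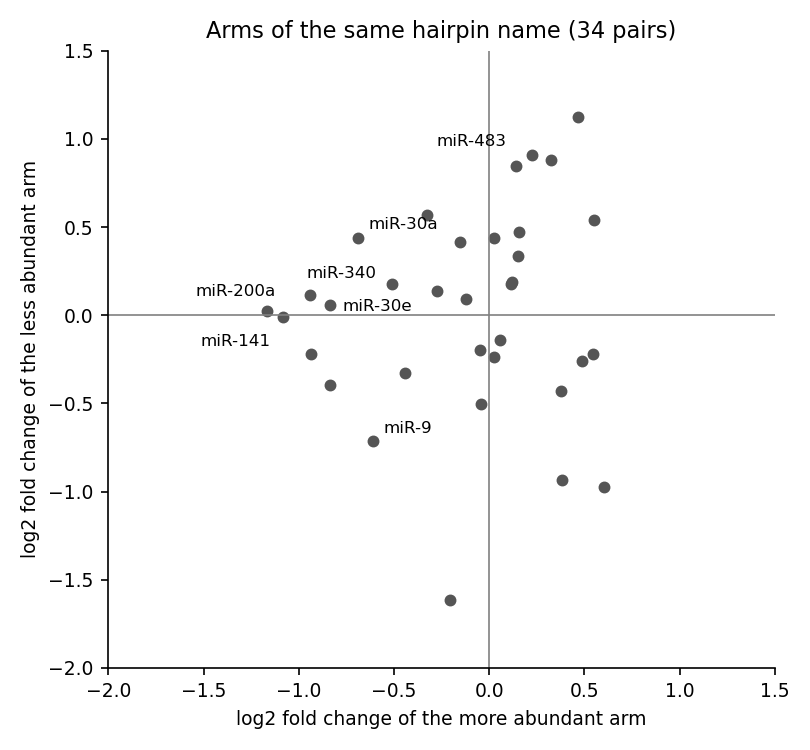
Log2 fold change (methyltransferase over control) of the less abundant arm against that of the more abundant arm for the 34 hairpin names with both arms tested, 1 point per name, with TMM factors. miR-141, miR-30e, miR-200a and miR-340 lie left of 0 with the less abundant arm between -0.01 and 0.11. That arm of miR-340 was rare, at 5.18 to 13.1 CPM over the 4 samples.

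Base composition accompanied the fold changes weakly. Across the 192 miRNAs, the log2 fold change and the GC content of the reference sequence had r = 0.29 and rho = 0.35, and r = 0.39 and rho = 0.41 over the 89 with a mean of at least 500 counts. The 30 miRNAs under 40% GC had a median log2 fold change of -0.40 with 22 below 0, and the 30 at 60% GC or more had 0.15 with 10 below 0. Length (r = -0.05) and mean CPM (r = -0.02) showed less. The points share samples and depth, and what lies behind the relation was not tested.

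Single sequences gave no call. Of 6317 distinct sequences tested, miRNA isomiRs and all other listed small RNAs together, 0 passed in either direction (0%) by the edgeR quasi-likelihood test, with 424 higher and 494 lower at an unadjusted p of 0.05 and a smallest adjusted p of 0.101. DESeq2's Wald test called 183. Without methyltransferase replicate 1 the edgeR test called 104, and without replicate 2 it called 32.

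Sequence lengths differed little between plasmids. The mean length was 22.30 and 22.33 nt in the control samples and 22.20 and 22.21 nt in the methyltransferase samples. Sequences longer than the reference took 21.6% of miRNA counts in both control samples and 18.2% and 17.3% with the methyltransferase. Reference-length sequences took 61.7% and 60.9% against 64.6% and 64.9%, and shorter ones 16.6% and 17.4% against 17.2% and 17.8%. The longer and reference-length shares did not overlap between plasmids, and the shorter share did. The smallest p of an exact two-sided permutation test is 0.333 at this sample number, and the longer and reference-length shares and the mean length reached it (0.619 after adjustment over 13 measures).

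**Figure D4:**
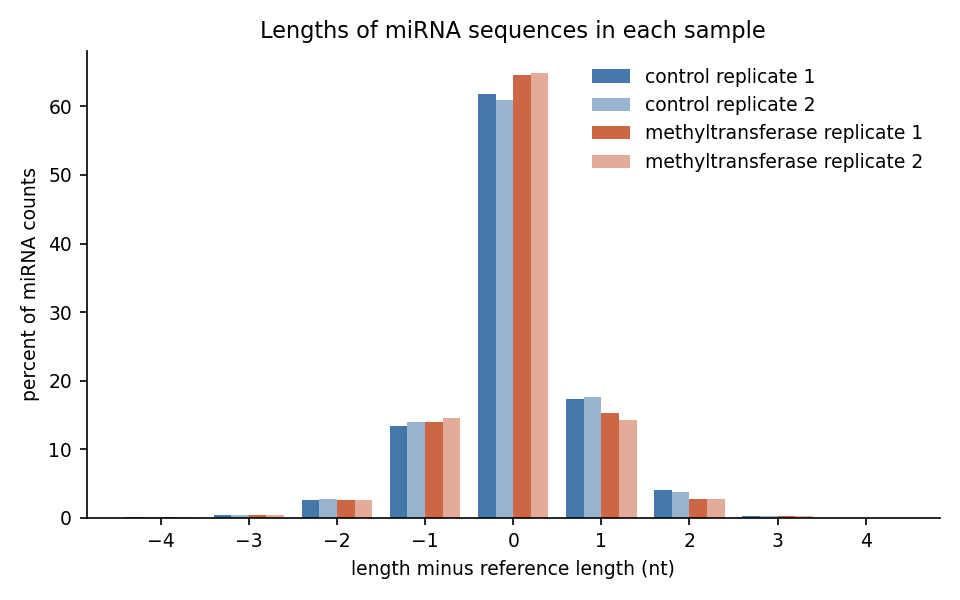
Percent of miRNA counts (vertical axis) by length minus reference length in nt (horizontal axis), 1 bar per sample, blue for control and orange for methyltransferase, the paler bar being replicate 2. At 1 nt over the reference the control samples stand at 17.3% and 17.7% and the methyltransferase samples at 15.2% and 14.3%.

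The lower value of the longer share lay mostly in changes of miRNA abundance, with the largest part given to miR-7a-5p, whose level was not called. Of the difference of -3.85 percentage points, -3.51 came from changes in the abundance of miRNAs and -0.34 from changes of the longer share within miRNAs. The part given to each miRNA depends on this way of dividing, because all shares of miRNA counts sum to a fixed total. A lower share of 1 miRNA goes with higher shares of others, such as let-7 (45.2% and 46.9% against 53.7% and 55.7%). Divided so, miR-7a-5p contributed -2.17 points, made of -3.10 through its lower abundance and 0.92 through a higher longer share. The sum of -0.34 within miRNAs thus nets this rise against falls in other miRNAs. miR-30e-5p contributed -0.57 points, all through abundance. Both miRNAs are mostly longer than their RefSeq reference. In miR-7a-5p the 24-nt form with 1 more templated base held 53.6% and 52.5% of counts with the control plasmid and 60.7% and 57.1% with the methyltransferase, and the 23-nt reference held 34.1% and 34.1% against 27.9% and 29.7%. In miR-30e-5p a 24-nt form with 2 more templated bases held 88.0% and 89.0% against 89.97% and 92.2%. The deposited sequences of these forms, as DNA, are as follows.
miR-7a-5p, 24 nt: tggaagactagtgattttgttgtt
miR-7a-5p, 23 nt: tggaagactagtgattttgttgt
miR-30e-5p, 24 nt: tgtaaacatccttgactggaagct

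The most abundant form rarely changed. Of 140 miRNAs with at least 50 counts in each sample, 124 had the same leading sequence in all 4 samples: the reference in 81, a longer templated form in 16, a shorter one in 16, a form with a shifted 5′ end in 6 and a tailed form in 5. The reference came from RefSeq in 74 of the 81 and was the longest listed hit in 7, miR-375-3p among them. In 4 miRNAs the length of the leading form was the same within each plasmid and differed between plasmids: miR-200b-3p (22 and 23 nt), miR-23b-3p (21 and 24 nt), miR-342-5p (23 and 25 nt) and miR-92b-5p (23 and 24 nt), control first. This count has no test. Sequences with a shifted 5′ end took 1.06% and 0.920% of miRNA counts against 1.04% and 0.932%, with overlap.

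Within single miRNAs the longer share was tested in 96. It was higher with the methyltransferase in 5 (5.21%) and lower in 11 (11.5%), at an adjusted p of 0.05 (edgeR quasi-likelihood test of the ratio of longer to other counts, Benjamini-Hochberg adjustment). Over all 96, 61 had a lower share and the median difference was -0.60 percentage points. The largest rises among miRNAs with a mean of at least 500 counts were in miR-106b-5p (27.01% and 27.1% against 44.4% and 39.3%) and miR-151-5p (31.0% and 29.9% against 39.8% and 41.3%), the latter against its longest listed hit as the reference. miR-7a-5p rose from 58.2% and 56.9% to 65.2% and 61.9%, and miR-29a-3p from 0.437% and 0.450% to 0.685% and 0.826%. In these 4 the samples of the plasmids did not overlap. Among all 96, 44 had a lower share without overlap and 16 a higher one. The edgeR adjusted p were 0.00229 for miR-106b-5p, 0.00212 for miR-151-5p, 0.0424 for miR-7a-5p and 0.0230 for miR-29a-3p. The fifth, miR-301a-3p, had fewer counts.

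The largest falls were in miR-138-5p, a neuronal miRNA (37.0% and 36.2% against 28.6% and 27.3%), miR-3099-3p (31.5% and 30.3% against 24.9% and 21.3%) and miR-1839-5p (31.8% and 31.1% against 22.6% and 24.8%). miR-141-3p fell from 33.5% and 28.8% to 27.2% and 23.4%, and miR-99a-5p from 13.9% and 11.5% to 7.56% and 7.39%. Their edgeR adjusted p ranged from 0.00212 for miR-99a-5p to 0.0478 for miR-141-3p, and no group overlapped. The smallest adjusted p belonged to miR-16-5p (3.98e-04), whose longer share fell from 4.89% and 4.75% to 3.12% and 2.62%. let-7c-5p, let-7i-5p, miR-93-5p, miR-129-5p and miR-122-5p were the other falls. Longer sequences include tailed ones, so the longer and tailed shares of a miRNA, as in let-7i-5p, hold reads in common. Untailed longer sequences took 17.7% and 18.1% of all miRNA counts with the control plasmid and 14.8% and 14.2% with the methyltransferase. Without either methyltransferase replicate, there were 0 longer-share calls in each direction, with smallest adjusted p of 0.0612 and 0.148, whereas leaving out a control sample gave 7 or 3 higher and 6 or 10 lower.

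The shorter share was tested in 99 miRNAs, with 4 higher (4.04%) and 9 lower (9.09%) by the same edgeR test, 57 below 0 and a median difference of -0.67 percentage points. miR-141-3p, called lower in level, rose in shorter share from 19.0% and 22.7% to 31.4% and 35.2% (adjusted p = 0.0133). Its 21-nt form made up nearly all of this, at 18.7% and 22.3% of miR-141-3p counts against 31.0% and 34.6%, while the 22-nt reference stood at 47.3% and 48.2% against 41.1% and 41.3%. The templated forms, from the deposited listing, differ by single 3′ bases.
miR-141-3p, 21 nt: taacactgtctggtaaagatg
miR-141-3p, 22 nt: taacactgtctggtaaagatgg
miR-141-3p, 23 nt: taacactgtctggtaaagatggc
miR-141-3p, 24 nt with a T tail: taacactgtctggtaaagatggcT
The 23-nt form stood at 21.5% and 18.9% against 16.01% and 13.2%, and the tailed 24-nt form at 2.75% and 2.29% against 2.71% and 2.20%. The lower level of miR-141-3p stood beside relatively more of its shortest main form.

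miR-200a-3p, which shares the seed of miR-141-3p, also rose in shorter share, from 5.95% and 7.80% to 12.2% and 13.7%. miR-181a-5p rose from 14.1% and 15.3% to 20.3% and 25.0%, and miR-26b-5p from 1.18% and 1.21% to 1.91% and 1.70%. The edgeR adjusted p of these 3 were 0.0160, 0.0327 and 0.0160. Falls in the shorter share included miR-7b-5p (42.3% and 40.5% against 33.4% and 34.3%), miR-29a-3p (74.9% and 75.0% against 65.2% and 67.9%) and miR-93-5p (14.4% and 13.4% against 9.15% and 7.45%). miR-16-5p fell from 8.40% and 8.44% to 5.41% and 5.23% (edgeR adjusted p = 0.00383), beside a share of the 22-nt length of 86.7% and 86.8% against 91.5% and 92.1%. miR-138-5p and miR-3099-3p likewise fell in both shares. The longer share of miR-93-5p also fell, from 9.83% and 10.1% to 8.32% and 7.23%. Without control replicate 1, control replicate 2 or methyltransferase replicate 2, there were 0 shorter-share calls in each direction, and without methyltransferase replicate 1 there were 3 higher and 11 lower.

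**Figure D5:**
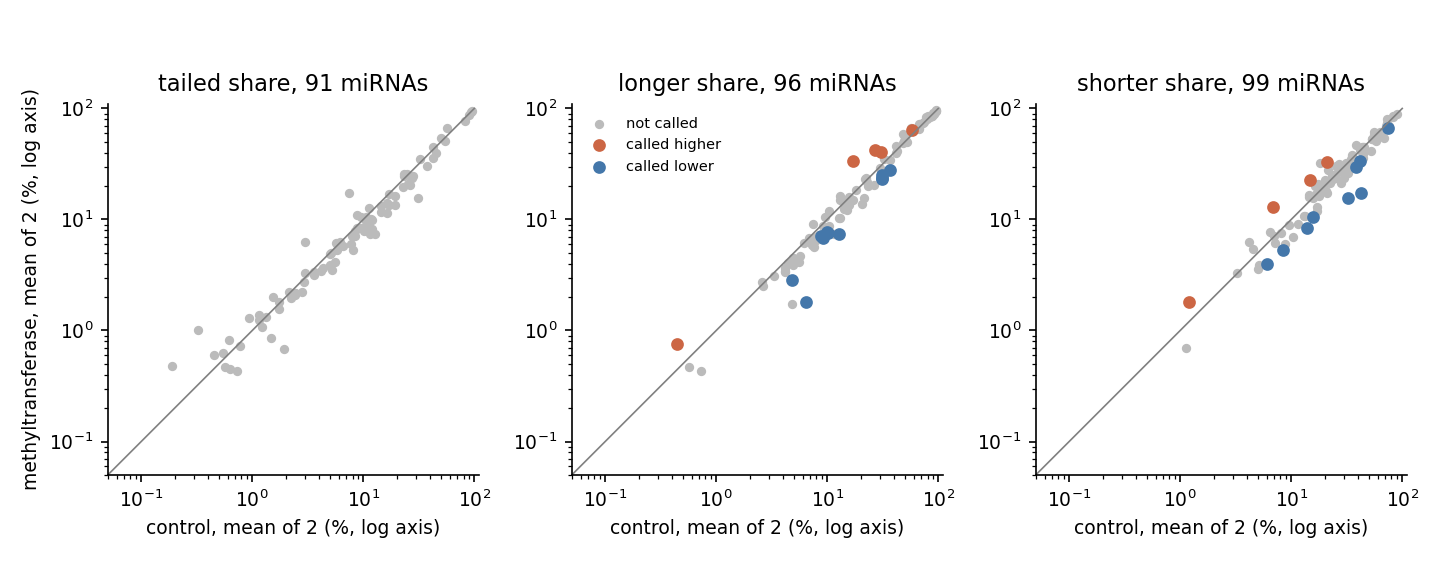
Mean share with the methyltransferase against mean share with the control plasmid (2 samples each, percent of the counts of the miRNA, both axes log) for tailed, longer and shorter sequences, 1 point per miRNA, with the diagonal as equality. Coloured points passed the test: 0 of 91 for tails, 16 of 96 for longer and 13 of 99 for shorter sequences.

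Tails were a small part of the profile with either plasmid. Sequences with an untemplated tail of 1 to 3 nt took 5.33% and 4.79% of miRNA counts in the control samples and 4.83% and 4.37% in the methyltransferase samples, with overlap. Tails of T only (uridylation in the RNA) took 3.22% and 2.62% against 2.55% and 2.20%, and tails of A only 1.44% and 1.46% against 1.49% and 1.45%. C-only tails took 0.145% and 0.166% against 0.224% and 0.197%, and G-only tails 0.123% and 0.124% against 0.169% and 0.146%. T, C and G tails did not overlap between plasmids, each at the exact permutation p of 0.333. Rare forms were listed only if seen in oxidized methyltransferase samples, and the part of this in the tail shares was not tested. A tail base that equals the genomic next base counts as templated, so tails are undercounted where the precursor continues with A or T.

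The tailed share was tested in 91 miRNAs and 0 passed, with 0% higher and 0% lower (edgeR quasi-likelihood test, smallest adjusted p 0.0515, 3 higher and 14 lower at an unadjusted p of 0.05). The median difference was -0.48 percentage points, and 63 of 91 were lower with the methyltransferase. The 3 smallest p-values among miRNAs with a mean of at least 500 counts were those of let-7i-5p (10.3% and 10.1% against 8.15% and 7.57%), miR-138-5p (0.391% and 0.257% against 0.910% and 1.10%) and miR-99a-5p (13.9% and 11.5% against 7.56% and 7.39%). None was called, each at an adjusted p of 0.0515. In miR-99a-5p every sequence longer than the reference was a tailed one, so these are the same reads as its longer share above, which passed at an adjusted p of 0.00212 in the longer-share test, and the 2 results are 1 observation. With at least 500 counts in every sample required, fewer miRNAs were tested and 2 higher and 4 lower passed. In let-7i-5p the tails were mostly T, at 6.43% and 6.30% against 5.00% and 4.54%, with A at 3.23% and 3.16% against 2.50% and 2.45%. In miR-99a-5p the 23-nt form with 1 added T stood at 11.3% and 9.56% against 5.70% and 5.89%. Both tailed forms are shown with the tail in capitals.
let-7i-5p, T tail: tgaggtagtagtttgtgctgttT
miR-99a-5p, T tail: aacccgtagatccgatcttgtgT

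Tail composition varied from miRNA to miRNA, given here as a description without a test. In miR-375-3p, T tails held 8.90% and 8.17% of counts with the control plasmid and 7.74% and 7.83% with the methyltransferase, and A tails 1.43% and 1.40% against 1.18% and 1.18%. miR-26a-5p was also mainly T-tailed, at 8.999% and 8.20% against 7.48% and 7.01%, as was miR-200c-3p at 9.78% and 9.55% against 9.67% and 9.29%. let-7c-5p carried mainly A tails, at 1.48% and 1.55% against 1.31% and 1.30%, and miR-16-5p as well, at 0.674% and 0.632% against 0.643% and 0.595%. let-7b-5p carried both, with A at 2.87% and 3.03% against 3.22% and 3.13% and T at 2.70% and 2.52% against 2.35% and 2.02%.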

How the data were processed

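Small RNA libraries were made with the QIAseq miRNA kit, per the labels' protocols. The authors deposited 1 listing of raw counts per distinct sequence and sample, per the file headers. Aligner, trimming, use of molecular identifiers and genome build are not given in the sources used here. Lines with the same sequence were merged (12608 to 11568). Sequences were assigned to mature miRNAs from RefSeq and GENCODE M21 hairpins (at least 16 nt templated, 5′ shift up to 2 nt, tail up to 3 nt). Ambiguous and 1-substitution sequences were left out of miRNA sums. For 151 listed names the RefSeq reference could be set against the longest listed hit, which equalled it in 133. Without a single RefSeq sequence, the longest listed hit was the reference for 18 names, and 5 without a template entered levels only. All other names took the RefSeq sequence. Of the 56 miRNAs described most closely, 49 matched the RefSeq sequence table.

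Levels were tested with edgeR 4.0.16 (R 4.3.3) quasi-likelihood tests after filterByExpr, with TMM factors and Benjamini-Hochberg adjustment over all features tested. Shares were tested with the same kind of test and adjustment, on the ratio of counts in the state to the other counts. This fit had 1 coefficient per sample and used neither filterByExpr nor TMM factors. Shares needed 50 counts in every sample and 10 in the state over the 4 samples. DESeq2 1.42.0 was an alternative. Standard errors were taken as the log2 fold change over the root of the F statistic. Scripts were tested on simulated data. Named miRNAs are the 20 most abundant, the 5 with the smallest p in each direction, listed markers, and up to 5 called (otherwise 3 uncalled) per share, with a mean of at least 500 counts; others are named as chosen after their values were seen: second arms, cluster neighbours, family members and the further miRNAs called for a share. Members and lists were chosen with earlier results of these data known. The labels do not say whether replicates were separate cultures, so p-values measure only the spread between these samples, which may be technical. Counts without stated identifiers may include amplification copies.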

Additional observations from a re-analysis of the deposited data

How the results depend on the processing

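The number of calls is the least settled result. miRNA levels gave 0 higher and 2 lower. With DESeq2 size factors this was 2 and 5, with total listed counts 0 and 10, with DESeq2's Wald test 5 and 11, with no filter or a mean of 50 counts 0 and 0, and in the fit of all 8 samples 2 and 0. Exact mature sequences gave 6 and 12, added 1-substitution sequences 7 and 13, and a minimum of 2 counts per non-oxidized sample 7 and 14. Leaving out 1 sample gave 0 to 4 higher and 0 to 11 lower. For single sequences (0 in either direction), no filter gave 67, DESeq2 183, and leaving out 1 sample 0 to 104. A minimum of 500 counts gave 2 and 4 tailed, and 3 and 17 longer calls. Leaving out 1 sample gave 1 to 3 and 3 to 8 tailed, 0 to 7 and 0 to 10 longer, and 0 to 3 and 0 to 11 shorter calls. The causes were not tested.

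Replicate numbers are shared by the plasmids, but the labels name no common batch, and the deviations of same-numbered samples correlated at 0.29 over 192 miRNAs from 2 pairs only, so the numbers are not taken to pair samples. With a replicate block, calls (higher and lower) were 18 and 28 for miRNAs, 395 in all for sequences, 3 and 8 for tailed, 2 and 8 for longer, and 9 and 19 for shorter shares.

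As a median over miRNAs with at least 500 counts, the tailed difference was -0.97 and the longer difference -1.72 percentage points. As shares of all miRNA counts, without let-7, the longer difference was -2.92 (-3.85 with let-7) and the shorter one -0.40 (0.46 with let-7) percentage points. Signs of small, uncalled log2 fold changes turned, in 38 of 192 miRNAs with total listed counts and in 6 with DESeq2 size factors. With total listed counts these included miR-16-5p (-0.031), let-7f-5p (-0.091), let-7d-5p (-0.13), miR-200c-3p (-0.19), miR-93-5p (-0.098), miR-183-5p (-0.13), miR-184-3p (-0.0034), miR-30e-3p (-0.19), miR-200a-5p (-0.22), miR-340-3p (-0.10) and miR-483-3p (-0.017). With DESeq2 size factors these included miR-141-5p (0.042) and, also with its Wald test, let-7g-5p (0.0063) and miR-182-5p (0.043). miR-182-5p was 0.012 without a filter, 0.0083 at a mean of 50 counts, 0.00029 with all 8 samples and 0.035 with exact mature sequences, where miR-7b-5p was 0.068. Leaving out 1 sample spanned -0.22 to 0.083 for miR-375-3p, -0.14 to 0.076 for let-7g-5p, -0.34 to 0.16 for miR-7b-5p, -0.067 to 0.38 for miR-93-5p, -0.018 to 0.034 for miR-182-5p, -0.42 to 0.22 for miR-128-3p, -0.030 to 0.56 for miR-184-3p and -1.61 to 0.0039 for miR-124-3p. With 1 sample left in a group, its spread is taken from the other group. At this depth, rare miRNAs such as let-7k carry wide errors.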
